A study of Mus musculus with 29 samples.

Results

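RNA of the mouse aortic arch was examined at a list of 45 very long genes, each with a genomic span (first to last annotated base) of about 200 kb or more. The list was taken as given, was chosen with earlier results of these data known, and holds adhesion, cytoskeleton, polarity, transcription, fragile site and trafficking genes. Of these, 44 had a row among the 56748 genes of the counts table, Ptprg was not analysed here, and 41 were among the 12353 genes that passed a filter on low counts, which required over 10 counts in over 10 of 28 mice. Npas3, Immp2l and Fhit did not pass it, with at most 8 counts in any mouse for Npas3 and Fhit and at most 41 for Immp2l. A further 577 tested genes had a span of at least 200 kb without being on the list.

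Ercc1 forms with Xpf an endonuclease that cuts damaged strands in nucleotide excision repair, including the branch that removes lesions at which RNA polymerase II has stalled, and in the repair of crosslinks between strands. A polymerase must cross the whole span of a gene, introns included, to make 1 transcript, so that a long gene offers more template to a lesion than a short one. Lower output of long genes is known as a feature of transcription stress in repair-deficient and aged tissues. In the arterial wall, the long genes on the list include components of the links between the smooth muscle cytoskeleton, its membrane and the matrix.

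Ercc1Δ/- mice, which carry 1 Δ and 1 null allele in every cell, were compared with their WT (Ercc1+/+) littermates, all F1 hybrids of C57BL6J and FVB and all fed the same synthetic pellets. Mice on ad libitum diet (AL) were taken at 6 weeks (5 WT and 5 Ercc1Δ/-) and at 22 weeks (4 WT and 4 Ercc1Δ/-). Mice on dietary restriction (DR), with food reduced stepwise from 7 weeks and by 30% from 9 weeks on, were taken at 22 weeks (5 WT and 5 Ercc1Δ/-). Both sexes were used, each mouse gave 1 sample, and WT sample 003 (22 weeks, AL) was left out for its 400410 counts. The deficiency is constitutive, so that these data hold changes of the whole animal as well as of the artery.

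Counts on genes ran from 921167 to 9616382 per mouse, and the listed genes took 0.296% to 0.438% of them. Depth moved with the genotype at 22 weeks, with 3903589 to 9616382 counts in WT and 1294980 to 3855444 in Ercc1Δ/- mice on AL, and 2660422 to 6124471 and 921167 to 2572523 on DR. The groups did not overlap in either, while at 6 weeks the Ercc1Δ/- range of 2299482 to 3979441 lay inside that of WT (955589 to 9227924). Mitochondrial counts were 2.47% to 3.72% of the counts in WT and 5.37% to 5.96% in Ercc1Δ/- mice at 22 weeks on AL, and unassigned reads 12.6% to 14.1% and 14.9% to 16.8%, again apart. On DR these overlapped for mitochondrial counts (2.88% to 5.12% and 4.04% to 9.22%) and were 13.1% to 15.7% and 15.8% to 18.7% for unassigned reads, and at 6 weeks both overlapped. Ercc1, the check of the genotype, had 31.2 to 56.3 normalized counts in Ercc1Δ/- and 52.2 to 136 in WT mice at 6 weeks, 54.1 to 69.8 and 108 to 127 at 22 weeks on AL, and 28.2 to 78.7 and 94.2 to 132 on DR. The groups overlapped at 6 weeks, where the lowest WT value rested on 13 counts. Differences in Ercc1 passed the test in all 3 comparisons (edgeR, adjusted p = 0.00032, 0.00271 and 0.000566). All 10 smooth muscle markers were detected in this tissue, and their summed normalized count was 126000 to 162000 in WT and 92000 to 129000 in Ercc1Δ/- mice at 6 weeks, 128000 to 151000 and 66900 to 103000 at 22 weeks on AL, and 131000 to 169000 and 93600 to 102000 on DR. Of these markers, 3, 8 and 9 were called lower in the 3 genotype comparisons and none higher. Of 7 tested macrophage markers, 1, 6 and 3 were called higher. Of 8 fibroblast markers, 0, 4 and 3 were called lower and 0, 0 and 1 higher. Called or not, 3, 4 and 5 of these 8 had a log2 fold change below 0 (medians 0.07, -0.29 and -0.16). Of 8 endothelial markers none was called lower and 0, 1 and 4 higher, with 1, 4 and 0 below 0 (medians 0.34, -0.05 and 0.61). The summed normalized count of the fibroblast markers was 25900 to 34100 in WT and 29800 to 44400 in Ercc1Δ/- mice at 6 weeks. It was 19200 to 24300 and 15700 to 21000 at 22 weeks on AL, and 16800 to 20100 and 13200 to 21200 on DR. None of 8 adipocyte markers was called, with median log2 fold changes of 0.18, 1.04 and 0.51. Of 6 tested cardiomyocyte markers 0, 1 and 1 were called higher, with medians of 1.33, -0.52 and 1.29. At 22 weeks on AL, 5 of these 6 lay below 0. Of 6 nerve markers 0, 1 and 1 were called higher, with medians of -0.49, 0.88 and 0.20. Of 3 cartilage markers 1, 0 and 1 were called lower, with medians of -0.30, -0.31 and -0.37. In bulk tissue, fewer cells of a type and less RNA per cell cannot be told apart, and the part of these marker shifts, and of the mitochondrial and unassigned shares, in the differences of the long genes was not tested.

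A larger share of the listed genes than of all tested genes was called lower in Ercc1Δ/- aortas, at both ages and on both diets. The listed genes were chosen with earlier results of these data known, so this excess is a description and not an independent test. Normalized counts are counts per library, scaled by TMM (a factor for library composition) to the mean library of 3683502 counts. A gene was called when its adjusted p was at most 0.05 (edgeR's quasi-likelihood test over all 12353 genes, Benjamini-Hochberg adjustment) and its change at least 1.2-fold. At 6 weeks on AL, 4 of 41 were lower and none higher in Ercc1Δ/- than in WT mice, beside 1.7% of all tested genes called, 1.13% lower. The same 4 genes were those whose 2 groups did not overlap, beside 1.81% of all genes with every Ercc1Δ/- mouse below every WT mouse. In AL-fed mice of 22 weeks, 12 were lower and 1 higher, beside 12% of all genes called, 6.16% lower and 5.88% higher. The groups of all 13 did not overlap, beside 9.63% of all genes apart in the lower direction and 9.01% in the higher. On DR, 10 were lower and none higher, beside 13% of all genes called, 7.03% lower, and 7 genes were without overlap, beside 5.2%. The median log2 fold change of the 41 genes was -0.16, -0.31 and -0.23 in these comparisons, beside 0.02, 0.03 and 0.00 for all tested genes. Including those that did not pass the test, 32, 34 and 33 of the 41 had a value below 0 (78%, 82.9% and 80.5%). The shares were 45.3%, 46.2% and 49.4% of all tested genes, and 64.8%, 69.8% and 62.4% of the 577 other genes of at least 200 kb. With all libraries thinned to the smallest total, so that depth no longer differed, 3 of the 4, 9 of the 13 and 5 of the 10 calls were kept and none was added. Over all tested genes, the calls went from 210 to 123, from 1487 to 797 and from 1605 to 968.

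**Figure D1:**
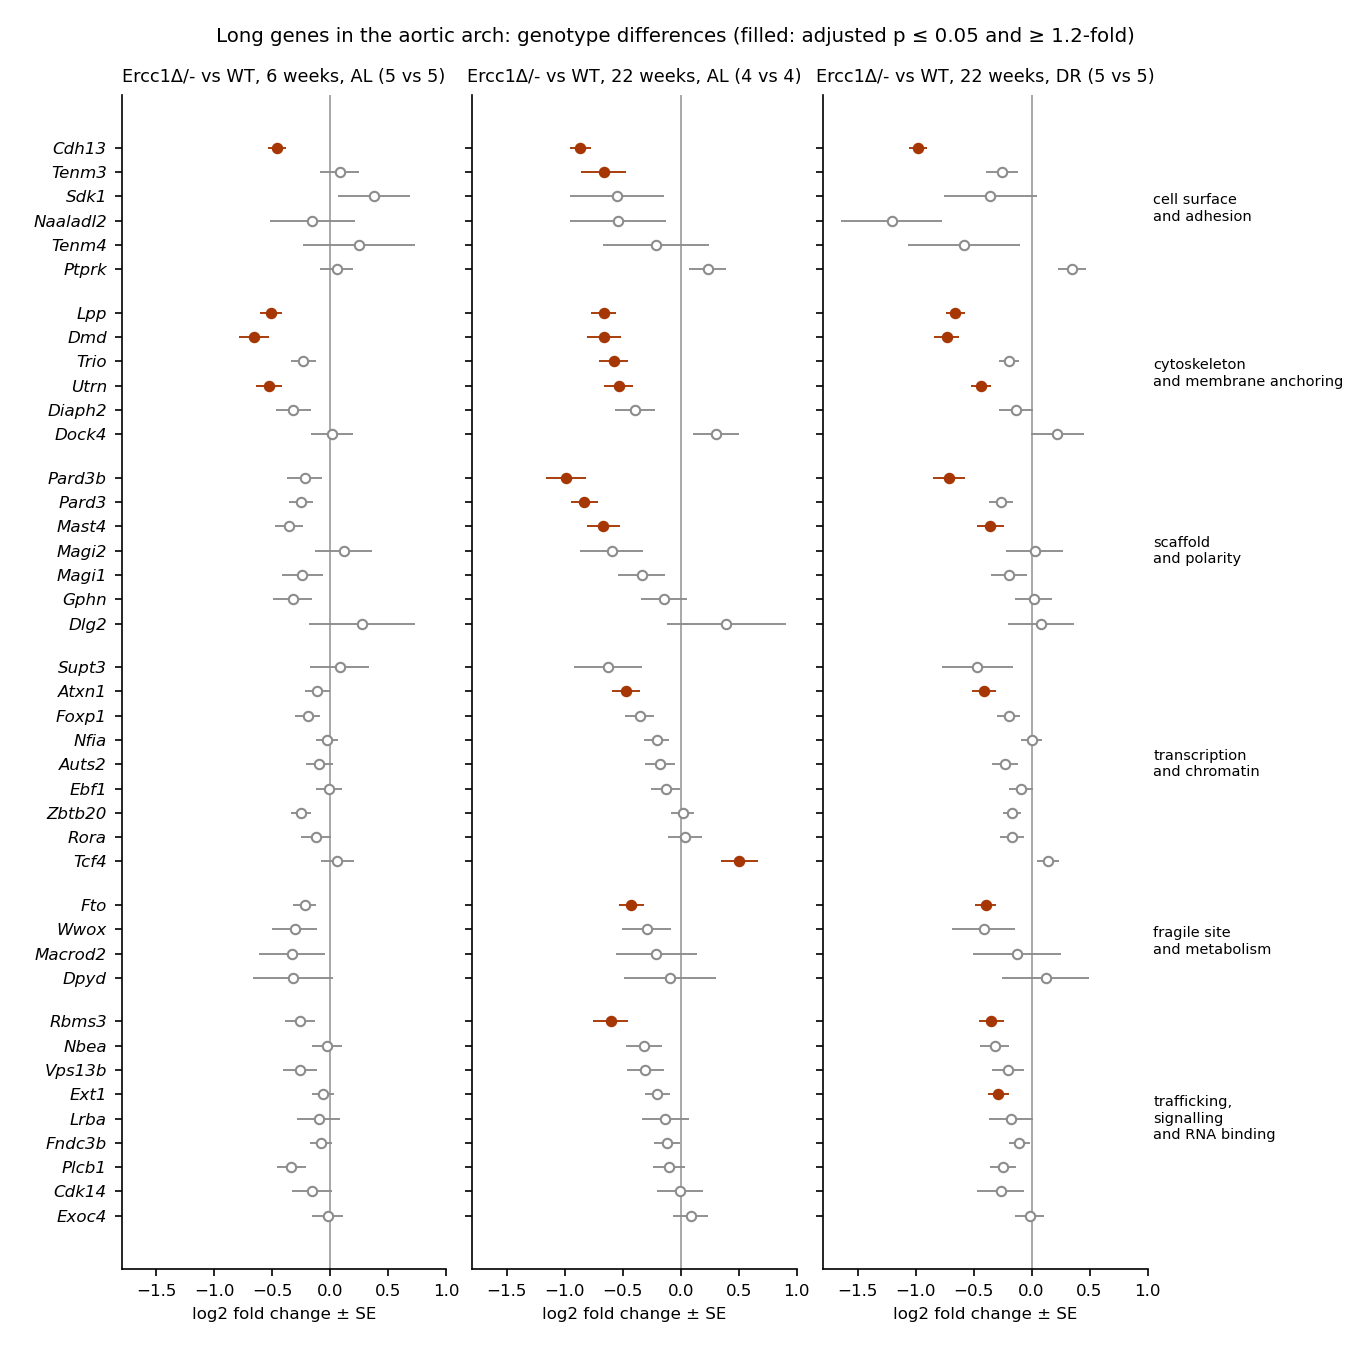
Log2 fold change (x axis, ± SE) of Ercc1Δ/- over WT mice for the 41 tested long genes (y axis, grouped by role) at 6 weeks on AL, at 22 weeks on AL and at 22 weeks on DR, where filled points passed the test. Most points lie left of 0 in each panel, with 4, 12 and 10 genes called lower and Tcf4, at 22 weeks on AL, called higher.

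Of 6 genes of the cytoskeleton and its membrane anchors, 3, 4 and 3 were called lower in the 3 genotype comparisons. Dystrophin (Dmd, 2260 kb, the longest gene on the list), utrophin (Utrn) and Lpp were lower in all 3. Dystrophin and its relative utrophin tie actin filaments to the dystroglycan complex at the cell membrane, and Lpp is a LIM domain protein of focal adhesions that is abundant in smooth muscle.

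Dmd had 443, 479, 484, 526 and 594 normalized counts in the WT mice at 6 weeks and 199, 295, 336, 368 and 375 in the Ercc1Δ/- mice, sorted by size. The 2 groups did not overlap (log2 fold change -0.66 ± 0.13 SE, 1.58-fold lower, adjusted p = 0.0102). The values at 22 weeks on AL were 410, 429, 479 and 521 in WT and 276, 286, 289 and 318 in Ercc1Δ/- mice. Every Ercc1Δ/- value was again below every WT value (log2 fold change -0.66 ± 0.15, adjusted p = 0.00474). On DR the WT mice had 408, 417, 463, 566 and 629 and the Ercc1Δ/- mice 259, 280, 299, 299 and 362 (log2 fold change -0.73 ± 0.11, adjusted p = 5.84e-05). Neither age nor diet gave a call for Dmd within a genotype, with log2 fold changes from -0.12 to 0.13. Its lowest mouse, Ercc1Δ/- sample 027 at 6 weeks, was also lowest in Utrn.

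Utrn had 535, 543, 588, 647 and 679 normalized counts in WT and 286, 400, 412, 460 and 486 in Ercc1Δ/- mice at 6 weeks, 2 groups without overlap (log2 fold change -0.53 ± 0.11, adjusted p = 0.0132). The difference at 22 weeks on AL was of the same size, with 534, 544, 599 and 601 in WT against 366, 406, 410 and 417 in Ercc1Δ/- mice (log2 fold change -0.53 ± 0.12, adjusted p = 0.00646). On DR, WT mice had 540, 581, 585, 678 and 680 and Ercc1Δ/- mice 382, 421, 427, 499 and 546. The highest Ercc1Δ/- value there lay above the lowest WT value (log2 fold change -0.44 ± 0.08, adjusted p = 0.000911).

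Lpp, one of the most abundant genes on the list, had 2119, 2298, 2346, 2381 and 2692 normalized counts in WT and 1439, 1544, 1559, 1748 and 1938 in Ercc1Δ/- mice at 6 weeks (log2 fold change -0.51 ± 0.10, adjusted p = 0.00729). AL-fed mice of 22 weeks had 1890, 2074, 2105 and 2142 in WT and 1130, 1228, 1337 and 1491 in Ercc1Δ/- mice (log2 fold change -0.66 ± 0.11, adjusted p = 0.000268). On DR it had 1693, 1743, 1752, 1803 and 2065 in WT and 988, 1063, 1159, 1185 and 1337 in Ercc1Δ/- mice (log2 fold change -0.66 ± 0.08, adjusted p = 8.21e-06). No Ercc1Δ/- value reached the lowest WT value in any of the 3 comparisons.

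Trio, a guanine nucleotide exchange factor, was called in 1 of the genotype comparisons, lower at 22 weeks on AL. It had 484, 500, 501 and 512 normalized counts in WT and 290, 323, 366 and 373 in Ercc1Δ/- mice, 2 groups without overlap (log2 fold change -0.58 ± 0.12, 1.5-fold lower, adjusted p = 0.00316). At 6 weeks WT mice had 452, 507, 554, 576 and 615 and Ercc1Δ/- mice 388, 405, 450, 451 and 585 (log2 fold change -0.23 ± 0.11, adjusted p = 0.372). On DR WT mice had 470, 493, 505, 525 and 560 and Ercc1Δ/- mice 342, 435, 447, 482 and 518 (log2 fold change -0.20 ± 0.09, adjusted p = 0.163). The groups overlapped in both. The formin Diaph2 had log2 fold changes of -0.32, -0.40 and -0.13 and the exchange factor Dock4 of 0.02, 0.30 and 0.22, with no call.

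Among cell surface genes, Cdh13 had the smallest p of the list in all 3 genotype comparisons. Cdh13 encodes T-cadherin, a cadherin without a cytoplasmic tail that binds adiponectin and low-density lipoprotein on vascular cells, and its 1040 kb carry 11.5 kb of exons. It had 1788, 1794, 1873, 1901 and 1924 normalized counts in WT and 1198, 1261, 1316, 1409 and 1515 in Ercc1Δ/- mice at 6 weeks (log2 fold change -0.46 ± 0.08, 1.37-fold lower, adjusted p = 0.00481). At 22 weeks on AL it had 1682, 1802, 1806 and 1861 in WT and 872, 916, 1002 and 1102 in Ercc1Δ/- mice (log2 fold change -0.87 ± 0.09, 1.82-fold lower, adjusted p = 2.23e-06). On DR it had 1542, 1698, 1808, 1866 and 1871 in WT and 857, 876, 890, 909 and 914 in Ercc1Δ/- mice (log2 fold change -0.98 ± 0.08, 1.97-fold lower, adjusted p = 1.08e-08). The WT groups lay close together at 1757 to 1856 on average, and all Ercc1Δ/- mice were below all WT mice of the same age and diet.

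The teneurin Tenm3, a large adhesion receptor, was lower at 22 weeks on AL, with 128 to 188 normalized counts in WT and 92.5 to 123 in Ercc1Δ/- mice (log2 fold change -0.67 ± 0.20, adjusted p = 0.0279). That call was kept under 9 of 16 other settings and was lost without Ercc1Δ/- sample 004 or 005 or WT sample 018 or 020. Its values at 6 weeks and on DR (log2 fold change 0.08 and -0.25) did not pass the test. Ptprk, a receptor phosphatase, had 0.05, 0.23 and 0.35, and its adjusted p on DR was 0.0506 by edgeR, while DESeq2 called it higher there (0.36 ± 0.13, adjusted p = 0.0361). Sdk1, Tenm4 and Naaladl2 were sparse, with at most 47 counts in a mouse and standard errors of 0.31 to 0.48, and none was called, with -1.21 ± 0.44 for Naaladl2 on DR (adjusted p = 0.0699).

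**Figure D2:**
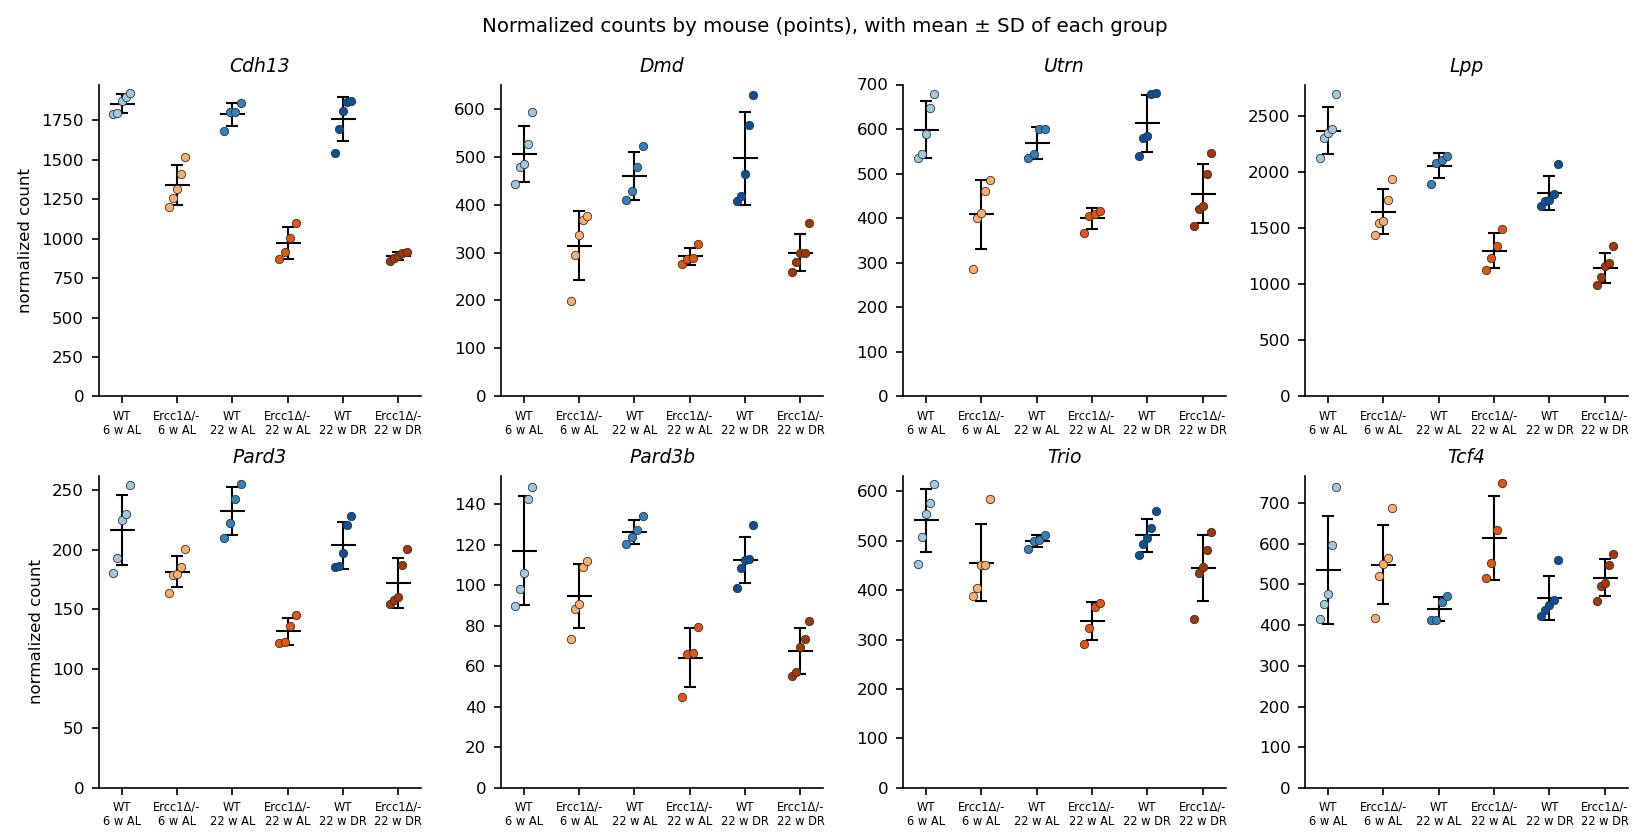
Normalized counts (y axis, from 0) of 8 long genes in each mouse (points), with mean ± SD, in the 6 groups (x axis). Cdh13, Dmd, Utrn and Lpp are low in each Ercc1Δ/- group, Pard3 and Trio lowest in the Ercc1Δ/- group at 22 weeks on AL, and Tcf4 highest there.

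The 3 of 7 scaffold and polarity genes called lower at 22 weeks on AL were Pard3, Pard3b and Mast4. Pard3 and its relative Pard3b are scaffolds of the Par complex that sets cell polarity and junctions, and Mast4 is a microtubule-associated kinase. Pard3b had 120, 124, 127 and 134 normalized counts in WT and 44.7, 66.2, 66.7 and 79.6 in Ercc1Δ/- mice (log2 fold change -0.99 ± 0.18, adjusted p = 0.000592), the largest change among the called genes of the list. On DR it had 98.7, 109, 112, 113 and 130 in WT and 55.1, 57.2, 69.6, 73.6 and 82.4 in Ercc1Δ/- mice (log2 fold change -0.71 ± 0.14, adjusted p = 0.000948). The groups were apart in both. At 6 weeks they overlapped, with 89.9, 98.2, 106, 143 and 149 in WT and 73.5, 88.5, 90.7, 109 and 112 in Ercc1Δ/- mice (log2 fold change -0.22 ± 0.15, adjusted p = 0.611).

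Pard3 had 210, 222, 243 and 255 normalized counts in WT and 122, 123, 136 and 145 in Ercc1Δ/- mice at 22 weeks on AL, 2 groups far apart (log2 fold change -0.83 ± 0.12, 1.78-fold lower, adjusted p = 7.35e-05). At 6 weeks WT mice had 181, 193, 225, 230 and 254 and Ercc1Δ/- mice 164, 178, 180, 185 and 200 (log2 fold change -0.25 ± 0.10, adjusted p = 0.283). On DR WT mice had 186, 186, 197, 221 and 229 and Ercc1Δ/- mice 154, 158, 160, 187 and 201 (log2 fold change -0.26 ± 0.11, adjusted p = 0.111). Neither of these passed the test, and the groups overlapped.

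Mast4 had 295, 321, 330 and 403 normalized counts in WT and 189, 213, 214 and 243 in Ercc1Δ/- mice at 22 weeks on AL, again without overlap (log2 fold change -0.67 ± 0.14, adjusted p = 0.0033). At 6 weeks it had 270, 350, 368, 390 and 394 against 228, 237, 253, 319 and 325 (log2 fold change -0.36 ± 0.12, adjusted p = 0.185). On DR it had 314, 325, 333, 392 and 430 against 231, 259, 286, 288 and 362 (log2 fold change -0.35 ± 0.12, adjusted p = 0.0494). The call on DR was kept under 3 of 18 other settings. The other scaffolds, Magi1, Magi2, Dlg2 and gephyrin (Gphn), had log2 fold changes from -0.60 (Magi2) to 0.39 (Dlg2) at 22 weeks on AL without a call.

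Of 9 tested genes of transcription and chromatin, 1 was lower and 1 higher at 22 weeks on AL. Atxn1, a transcriptional corepressor, had 169 to 203 normalized counts in WT and 119 to 156 in Ercc1Δ/- mice (log2 fold change -0.47 ± 0.12, adjusted p = 0.0118), and was lower on DR too (-0.41 ± 0.11, adjusted p = 0.0104). Tcf4, a basic helix-loop-helix factor, was the only listed gene called higher. It had 413, 414, 456 and 471 normalized counts in WT and 516, 554, 633 and 749 in Ercc1Δ/- mice (log2 fold change 0.50 ± 0.16, adjusted p = 0.0412), without overlap, but the call was kept under only 4 of 16 other settings, with adjusted p up to 0.231, and was lost when any 1 of these 8 mice was left out.

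For Tcf4 the groups overlapped at 6 weeks, with 415, 453, 477, 597 and 739 in WT and 418, 520, 549, 566 and 688 in Ercc1Δ/- mice (log2 fold change 0.06 ± 0.14, adjusted p = 0.909). On DR they overlapped as well, with 422, 437, 448, 462 and 560 in WT and 458, 496, 504, 548 and 574 in Ercc1Δ/- mice (log2 fold change 0.15 ± 0.10, adjusted p = 0.358). Foxp1, a forkhead repressor, had -0.36 ± 0.12 at 22 weeks on AL (adjusted p = 0.0637 by edgeR and 0.0383 by DESeq2). Nfia, Zbtb20, Ebf1, Rora, Auts2 and Supt3 were not called in any comparison, and Zbtb20 had 0.01 ± 0.10 there.

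Among the fragile site and metabolic genes, Fto, an RNA demethylase, was called lower at 22 weeks on AL (379 to 470 in WT and 289 to 343 normalized counts in Ercc1Δ/- mice, log2 fold change -0.43 ± 0.11, adjusted p = 0.0114) and on DR (-0.40 ± 0.09, adjusted p = 0.0041). The first of these calls was lost without WT sample 018 (-0.34, adjusted p = 0.0921). Wwox, Macrod2 and Dpyd, which span 913, 2000 and 871 kb, had log2 fold changes from -0.41 to 0.12 in the 3 comparisons with standard errors of 0.19 to 0.40 and no call.

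Of the 9 genes of trafficking, signalling and RNA binding, Rbms3, an RNA-binding protein, was lower at 22 weeks on AL, with 387 to 525 normalized counts in WT and 271 to 348 in Ercc1Δ/- mice (log2 fold change -0.60 ± 0.15, adjusted p = 0.00985). It was lower on DR as well (-0.35 ± 0.11, adjusted p = 0.0341), where the groups overlapped and the call was kept under 7 of 18 other settings. Ext1, a glycosyltransferase that builds heparan sulfate chains, was called on DR alone (-0.29 ± 0.09, adjusted p = 0.0306, kept under 11 of 18 and lost without Ercc1Δ/- sample 006 or 029 or WT sample 010 or 021). Exoc4, Vps13b, Lrba, Nbea, Plcb1, Cdk14 and Fndc3b had log2 fold changes from -0.33 to 0.08 in the 3 comparisons and no call.

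Cdh13, Dmd, Lpp and Utrn were the listed genes called lower in all 3 genotype comparisons. Their stretches of 250 bases just before the start of the Ensembl canonical transcript, at which other starts of the same gene are not covered, are given 5′ to 3′ on the strand of the gene, read from GRCm39. They lie at chr8:119010078-119010327 (Cdh13, + strand), chrX:81992224-81992473 (Dmd, + strand), chr16:24211880-24212129 (Lpp, + strand) and chr10:12745266-12745515 (Utrn, - strand). They are shown because these genes were called at both ages and on both diets. Capitals mark matches on either strand to 6 motifs. These were TATAAA (the TATA box), CCAAT (the site of factor NF-Y), GGGCGG (a site of Sp factors), TGACTCA (the site of AP-1 factors), CACGTG (an E-box) and the CArG box (the site of serum response factor).
Cdh13: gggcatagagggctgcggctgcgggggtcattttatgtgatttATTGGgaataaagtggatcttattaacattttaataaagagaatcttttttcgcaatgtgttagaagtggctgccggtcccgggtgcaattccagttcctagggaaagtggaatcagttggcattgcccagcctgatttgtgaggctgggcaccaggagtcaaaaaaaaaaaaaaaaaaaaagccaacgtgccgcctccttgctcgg
Dmd: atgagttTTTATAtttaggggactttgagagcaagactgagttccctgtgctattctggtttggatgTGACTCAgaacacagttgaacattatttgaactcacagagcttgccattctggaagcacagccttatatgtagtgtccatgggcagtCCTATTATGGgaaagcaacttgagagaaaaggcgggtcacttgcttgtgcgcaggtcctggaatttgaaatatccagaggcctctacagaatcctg
Lpp: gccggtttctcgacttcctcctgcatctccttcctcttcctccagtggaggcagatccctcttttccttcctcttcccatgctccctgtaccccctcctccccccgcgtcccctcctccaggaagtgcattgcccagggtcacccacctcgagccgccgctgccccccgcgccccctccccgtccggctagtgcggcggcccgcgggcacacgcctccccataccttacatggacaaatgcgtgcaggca
Utrn: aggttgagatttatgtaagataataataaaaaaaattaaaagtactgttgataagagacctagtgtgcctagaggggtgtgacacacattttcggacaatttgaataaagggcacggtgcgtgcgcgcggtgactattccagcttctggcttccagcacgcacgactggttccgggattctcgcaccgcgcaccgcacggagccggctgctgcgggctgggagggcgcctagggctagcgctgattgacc

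The Dmd stretch held TATAAA on the reverse strand, TGACTCA and a CArG box, that of Cdh13 held CCAAT on the reverse strand, and those of Lpp and Utrn held none of the 6. Their GC content ran from 44.4% in Dmd to 66.8% in Lpp. Over the 41 tested long genes, 3 stretches held TATAAA (7.32%, beside 7.29% of the 12343 tested genes with a stretch), 14 held CCAAT (34.1% beside 35.4%) and 20 held GGGCGG (48.8% beside 49.0%). TGACTCA stood in 1 (2.44% beside 3.11%), CACGTG in 3 (7.32% beside 7.58%) and the CArG box in 2, Dmd and Atxn1 (4.88% beside 1.22%). None of the matches in the 4 stretches overlapped. A match is a run of letters and no evidence of binding.

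The tested long genes differed widely in structure and level. Exons made up 0.773% (Naaladl2) to 8.18% (Tcf4) of the span. The mean normalized count per kb of exon ran from 0.63 (Tenm4) to 125 (Cdh13), with Ext1 at 85.6 and Lpp at 77.3 next. Across the 41 genes, the Spearman rank correlation of the log2 fold change at 22 weeks on AL was -0.17 with span, 0.20 with exon length, -0.13 with the level per kb of exon and 0.25 with the exonic share of the span. These values are across genes of the same libraries, and genes are not independent replicates.

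Between 6 and 22 weeks on AL, 5 long genes were lower with age in Ercc1Δ/- mice and none in WT mice. The 5 were Cdh13 (log2 fold change -0.47 ± 0.09, adjusted p = 0.00157), Pard3 (-0.48 ± 0.12, adjusted p = 0.016), Trio (-0.45 ± 0.12, adjusted p = 0.0279), Tenm3 (-0.67 ± 0.19, adjusted p = 0.0442) and Lpp (-0.36 ± 0.10, adjusted p = 0.0473), beside 4.69% of all genes called, 2.57% lower. The values of Cdh13, Pard3 and Trio at 22 weeks were all below those at 6 weeks, as were those of Nfia, which was not called, beside 3.38% of all genes, while those of Tenm3 and Lpp overlapped. The calls were unequal in firmness. That of Cdh13 was kept under all 17 other settings, Pard3 under 14, Trio under 10, Lpp under 8 and Tenm3 under 7. DESeq2 also called Pard3b lower with age (-0.56 ± 0.18, adjusted p = 0.036). Several mice decided the edgeR calls. Without the 22-week Ercc1Δ/- sample 005 Cdh13 alone was called, and without sample 004 (22 weeks) or 008 (6 weeks) the calls of Lpp, Tenm3 and Trio were lost. Lpp was also lost without samples 002, 013 or 023, Tenm3 without 002, 015 or 023, Trio without 015 and Pard3 without 026. In the same comparison 4 of 8 fibroblast markers were called lower, with 5 of the 8 below 0, and 4 of 7 macrophage markers higher. Of 10 smooth muscle markers 1 was called lower, with all 10 below 0. The part of these shifts was not tested. In WT mice age gave no call for any of these markers.

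In WT mice edgeR called none of the 41 with age, beside 0.235% of all genes, and DESeq2 called none. An edgeR unadjusted p under 0.05 was found for 3 of the 41, beside 1067 of all 12353 tested genes. The median log2 fold change of the 41 genes with age was -0.20 in Ercc1Δ/- and -0.06 in WT mice. The genotype by age interaction, which tests whether the genotypes differ in their change with age, gave no call by edgeR, beside 0.842% of all genes called. Its unadjusted p was under 0.05 for 7 of the 41, beside 1409 of all 12353 tested genes. DESeq2 called Cdh13 (interaction -0.41 ± 0.11, adjusted p = 0.02) and Pard3 (-0.59 ± 0.17, adjusted p = 0.0371). By edgeR the adjusted p was 0.137 for Cdh13 and 0.0984 for Pard3.

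Under DR, Trio was the only long gene called, and it was higher than on AL in Ercc1Δ/- mice. Its values were 290, 323, 366 and 373 normalized counts on AL and 342, 435, 447, 482 and 518 on DR, with 1 DR mouse inside the AL range (log2 fold change 0.41 ± 0.10, 1.33-fold higher, adjusted p = 0.035, beside 1.64% of all genes called, 0.648% higher). That call was kept under 6 of 17 other settings and was lost without Ercc1Δ/- sample 004, 005 or 026 on AL or 016, 022 or 029 on DR. Pard3 and Mast4 had diet values of 0.39 ± 0.12 (adjusted p = 0.109) and 0.41 ± 0.14 (adjusted p = 0.118), with the DR mice all above the AL mice for Pard3, beside 2% of all genes. In the other direction, Exoc4, Ext1 and Tcf4 had -0.36 ± 0.14, -0.24 ± 0.09 and -0.24 ± 0.10 (edgeR adjusted p = 0.184, 0.206 and 0.237). For Ext1 the DR mice were all below the AL mice, beside 3.02% of all genes. Cdh13, Dmd and Lpp had -0.12, 0.01 and -0.18. The median over the 41 genes was 0.05 in Ercc1Δ/- mice, beside 0.00 for all tested genes, but -0.05 after thinning to the smallest total, and -0.03 in WT mice.

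In WT mice edgeR called no long gene with diet, beside 1.28% of all genes, and DESeq2 called none. An edgeR unadjusted p under 0.05 was found for 3 of the 41, beside 1581 of all 12353 tested genes. The genotype by diet interaction gave no call either (none by DESeq2, 0.0971% of all genes called by edgeR), with edgeR adjusted p of 0.425 for Trio and 0.212 for Pard3. Its unadjusted p was under 0.05 for 3 of the 41, beside 1077 of all 12353 tested genes. The comparisons of Ercc1Δ/- mice on AL with WT on AL and with Ercc1Δ/- on DR share the same 4 mice.

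Among genes outside the list, the genotype difference on AL was ordered by span. At 22 weeks on AL the median log2 fold change of Ercc1Δ/- over WT mice, listed genes left out, went from 0.12 in 2727 genes under 10 kb to -0.05 in 1123 genes of 100 to 200 kb, -0.17 in 507 genes of 200 to 500 kb and -0.33 in 70 genes of 500 kb or more. With the listed genes, the share called lower was 3.67% under 10 kb and 23.2% at 500 kb or more, while the share called higher was 7.33% and 2.02%. On DR the medians of those shortest and longest genes were 0.03 and -0.28, while the bins between 10 and 200 kb had -0.01 to 0.02 without order. At 6 weeks the shortest and longest genes had 0.08 and -0.15. With age in AL-fed Ercc1Δ/- mice the medians went from 0.06 to -0.13. In diet-restricted over AL-fed Ercc1Δ/- mice the order was turned, from -0.04 to 0.10. That diet comparison shares its AL-fed Ercc1Δ/- mice with the genotype comparison at 22 weeks on AL. They are therefore not independent, here and in the values by mouse below. Age and diet in WT mice gave medians from -0.02 to 0.03 in all bins. Counted directly, 98 of the 577 other genes of at least 200 kb were called lower at 22 weeks on AL (17.0%) and 21 higher, beside 12 of 41 on the list (29.3%) and 6.16% of all tested genes. The list was chosen with earlier results of these data known, which limits its comparison with the other long genes.

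**Figure D3:**
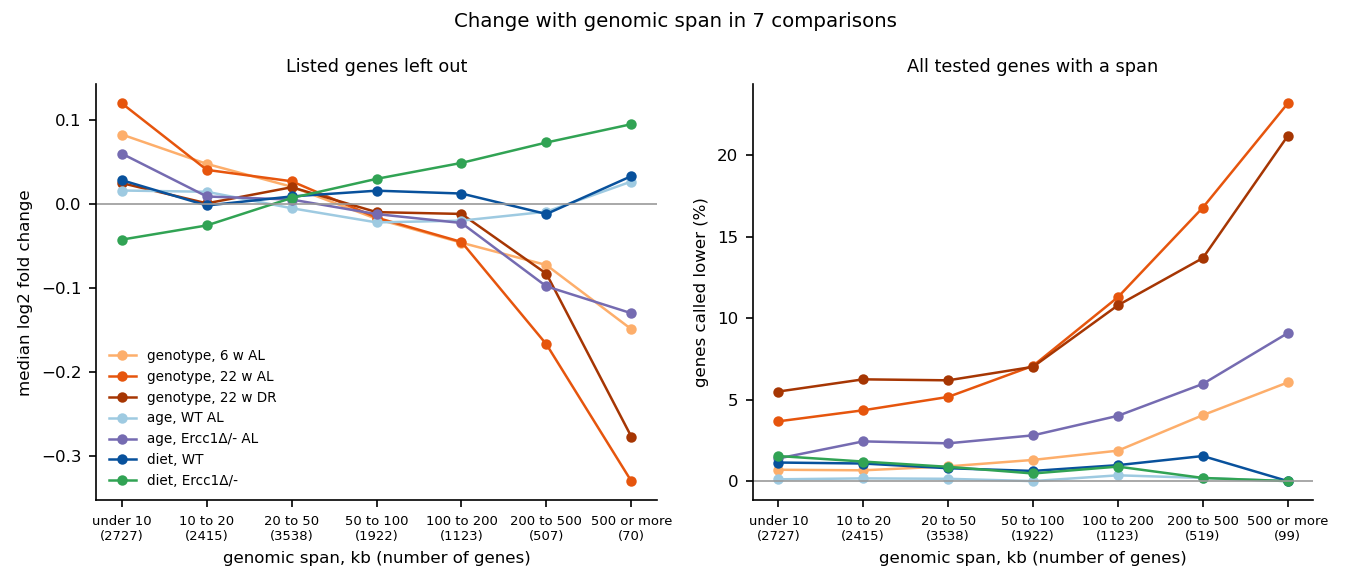
Median log2 fold change (left, listed genes left out) and percentage of genes called lower (right) by genomic span in kb (x axis, number of genes in brackets) for 7 comparisons. The 3 genotype lines go down with span to -0.15, -0.33 and -0.28 at 500 kb or more, the diet line of Ercc1Δ/- mice goes up to 0.10, and the lines of WT mice stay near 0.

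To set this trend against the spread between mice, a slope was fitted for each mouse over 12302 tested genes outside the list, as the change in log2 CPM (counts scaled to a common library size), relative to the mean of the gene over all mice, for each factor of 10 in span. At 22 weeks on AL the slopes were 0.01, 0.04, 0.06 and 0.07 in WT and -0.14, -0.11, -0.08 and -0.01 in Ercc1Δ/- mice. The 2 groups did not overlap, with a difference of -0.13 (two-sided exact permutation test over mice, p = 0.0286, the smallest that 4 against 4 allow, adjusted p = 0.139 over 7 comparisons). On DR the means were 0.04 ± 0.04 (SD, n = 5) in WT and -0.02 ± 0.03 (SD, n = 5) in Ercc1Δ/- mice, a difference of -0.06 (exact permutation p = 0.0397, adjusted p = 0.139). At 6 weeks the difference was -0.08 (exact permutation p = 0.127, adjusted p = 0.222), and -0.04 without Ercc1Δ/- sample 027, whose slope of -0.19 was the lowest of all mice. The mean slope of Ercc1Δ/- mice was 0.06 higher on DR than on AL (exact permutation p = 0.0873, adjusted p = 0.204). No comparison passed the threshold after adjustment. Unlike the edgeR model, the permutation tests here and below did not adjust for sex.

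A coarser measure, an alternative to the slope that was adjusted over its own 7 comparisons, passed the threshold in 4 of them. No other alternative to the slope passed it in any comparison, the lowest adjusted p being 0.0556 (exact permutation tests, diet in Ercc1Δ/- mice). That value came with protein-coding genes only and also with genes of at least 100 counts on average. In these settings the slope difference between genotypes on DR had an exact permutation p of 0.143 and 0.0873. The median of the 577 other genes of at least 200 kb minus that of 5142 genes under 20 kb differed between genotypes by -0.16 at 6 weeks, -0.24 at 22 weeks on AL and -0.12 on DR, and by 0.11 between diets in Ercc1Δ/- mice (exact permutation tests, adjusted p = 0.05, 0.05, 0.0278 and 0.0278). The 2 groups overlapped at 6 weeks and were apart in the other 3. At 6 weeks the difference was -0.09 without Ercc1Δ/- sample 027 (exact permutation test, adjusted p = 0.0667), and it no longer passed the threshold without any 1 of 7 of the 10 mice. With exon length as a second term, the slope difference at 22 weeks on AL shrank to -0.06 (exact permutation p = 0.171, adjusted p = 0.6). The genotype difference went from -0.08 to -0.06 at 6 weeks and from -0.06 to -0.02 on DR (exact permutation tests, adjusted p = 0.5 and 0.744). In Ercc1Δ/- mice the diet difference went from 0.06 to 0.03 and the age difference from -0.05 to -0.00356 (exact permutation tests, adjusted p = 0.744 and 0.944). The smooth muscle marker sums moved with genotype as given above, and their part in the span trend was not tested.

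**Figure D4:**
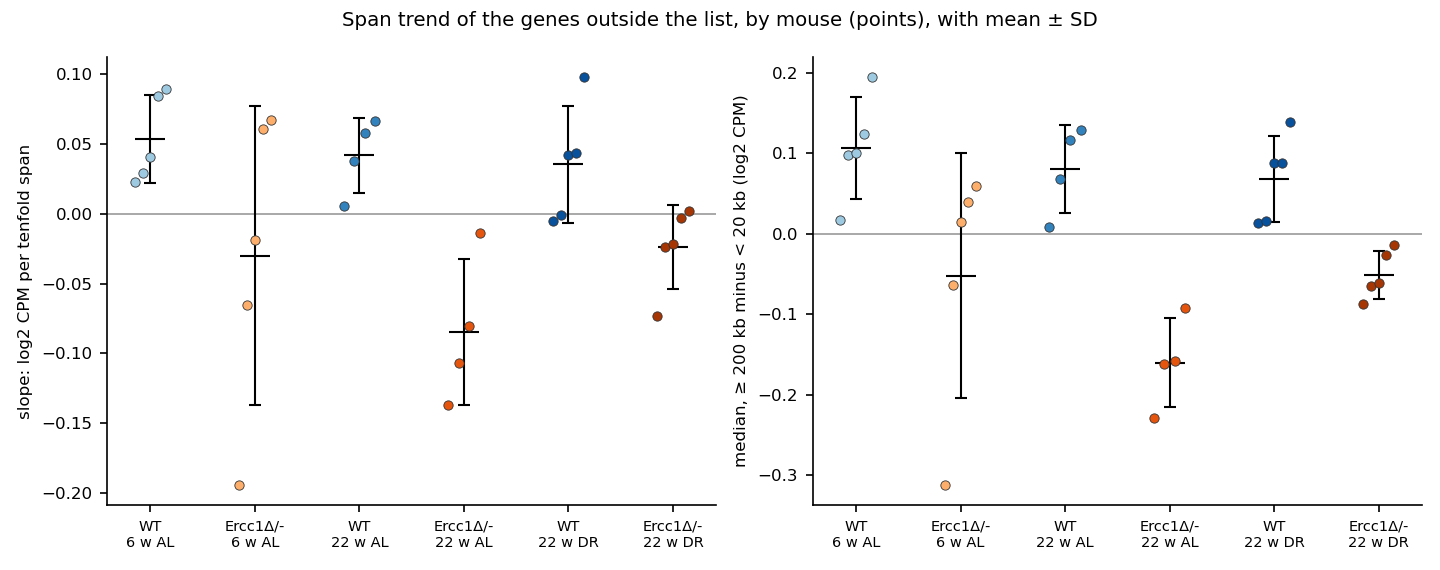
Slope of log2 CPM on log10 span (left) and median of genes of at least 200 kb minus median of genes under 20 kb (right), by mouse (points) with mean ± SD, for genes outside the list in the 6 groups (x axis). At 22 weeks on AL all 4 Ercc1Δ/- mice lie below all 4 WT mice in both panels, and 1 Ercc1Δ/- mouse at 6 weeks lies far below its group.

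The long genes outside the list with the smallest p at 22 weeks on AL were, among those lower, the sodium-calcium exchanger gene Slc24a3 (474 kb, log2 fold change -0.86 ± 0.10), the integrin gene Itga9 (294 kb, -0.998 ± 0.12) and Astn2 (1020 kb, -1.50 ± 0.18). Among those higher they were Celf4 (277 kb, 2.79 ± 0.31), the leukocyte gene Dock2 (498 kb, 1.80 ± 0.28) and Gfra1 (221 kb, 2.31 ± 0.40). Their edgeR adjusted p ran from 4.41e-06 to 0.000466.

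Among genes that cope with stalled polymerases, 1, 2 and 2 of 19 of transcription-coupled repair were called in the 3 genotype comparisons and 0, 2 and 2 of 32 of RNA polymerase II elongation, beside 1.7%, 12% and 13% of all genes. Ercc2, a helicase of the repair and transcription factor TFIIH, was lower in all 3 genotype comparisons (log2 fold change -0.55, -0.90 and -0.77, edgeR adjusted p = 0.0323, 0.000336 and 0.00167). The cause of the Ercc2 difference was not tested. Rpa1 was higher at 22 weeks on AL (0.43) and Stk19 on DR (0.59). The repair list had medians of 0.05, 0.06 and 0.01. Polr2a, the largest subunit of the polymerase, was higher at 22 weeks on AL (0.46 ± 0.12, edgeR adjusted p = 0.0119) and on DR (0.71 ± 0.10, adjusted p = 3.57e-05). Of the Paf1 complex, Paf1 was lower on AL (-0.34) and higher with diet in Ercc1Δ/- mice (0.35), and Leo1 was higher on DR (0.55).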

How the data were processed

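The authors sequenced RNA of 29 aortic arches, aligned reads to mm39 with STAR 2.7.10a, removed duplicates by molecular identifiers (UMI-tools 1.1.2) and counted them with HTSeq 2.0.2. They deposited whole-number counts per gene, not normalized. The study's methods name reads over the whole gene body, and whether introns were counted is not stated. Of 459 protein-coding genes nested on the strand of another, 64.1% had counts, beside 79.1% of 21171 others. Totals of 921167 to 9616382 counts per mouse set the precision, and 5 lines of unassigned reads (12.6% to 18.7% of all) were left out. Spans and exons came from GENCODE vM39 on the same build, and 56017 genes had one. Replicates are separate mice, and pairs differed beyond sampling noise (chi-square per degree of freedom 2.31 to 22.9).

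The main tool was edgeR 4.0.16 in R 4.3.3 (robust quasi-likelihood test, TMM), beside DESeq2 1.42.0, limma 3.58.1 and, for plots, Python 3.11.15. A model of group and sex was fitted to the 18 AL-fed mice (age, genotype) and to the 18 mice of 22 weeks (diet, genotype on DR). Log2 CPM values used a prior count of 2. The edgeR fit and the span slope were tested on simulated data. Named in full were the 8 long genes with the smallest p lower and those higher at 22 weeks on AL, those called in at least 3 comparisons and those called with diet. The listed genes, gene lists and tests were chosen with earlier results of these data known. Alternatives were DESeq2, other size factors, no filter, sample 003 added, no sex term, other sample sets, thinning to 921167 counts and each mouse left out.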

Additional observations from a re-analysis of the deposited data

Results flagged for a closer look

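Over 14 long genes called in any comparison and the span slope, 90 groups of 4 or 5 mice were checked for a value standing apart from its group by Dixon's 95% limit, and 2 were found, where chance gives about 1 in 20. In WT mice on DR, Atxn1 had 136 normalized counts in sample 021 against 156 in the nearest mouse, and Tcf4 had 560.3 in sample 028 against 462 in the nearest mouse.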

How the results depend on the processing

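No paired analysis was possible because each mouse gave 1 sample and the numbers of the mice are not shared between groups. No call of a single long gene changed direction, under any alternative. In the genotype comparisons, leaving out 1 mouse gave 4 called genes throughout at 6 weeks, 10 to 13 at 22 weeks on AL and 7 to 11 on DR, and thinning to the smallest total gave 5 on DR. The 5 genes called with age in Ercc1Δ/- mice became 1 with sample 003 added, 2 with only the groups compared and 3 after thinning, and 1 (without Ercc1Δ/- sample 005 of 22 weeks) to 7 (without sample 027 of 6 weeks) with a mouse left out. Trio under diet gave 0 without the low-count filter, with sample 003 added, with all 6 groups in 1 fit, with only the groups compared and after thinning, and 0 to 1 with a mouse left out. For age or diet in WT mice and for both interactions, leaving out a mouse gave 0 to 0, and DESeq2 gave 2 for genotype by age.

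The span slope difference ran from -0.108 to -0.0424 (genotype at 6 weeks), -0.15 to -0.109 (22 weeks on AL), -0.0694 to -0.0436 (DR), -0.0957 to -0.0304 (age, Ercc1Δ/-), 0.0433 to 0.0844 (diet, Ercc1Δ/-), -0.0197 to 0.000561 (age, WT) and -0.022 to 0.00372 (diet, WT) with a mouse left out. The last 2 changed sign, with 0.000561, 0.00268, 0.00372 and 0.00175 (without samples 012, 010, 017 and 025), and diet in WT also with protein-coding genes alone (0.0106) and sample 003 added (0.0143). Long minus short medians, alone among the settings of the span trend, passed the threshold at -0.159, -0.241, 0.109 and -0.119, and the cause was not tested. Their ranges with a mouse left out, an alternative added after seeing the data, were -0.187 to -0.0944 (genotype at 6 weeks), -0.265 to -0.218 (22 weeks on AL), -0.133 to -0.102 (DR), -0.173 to -0.0801 (age, Ercc1Δ/-), 0.0866 to 0.132 (diet, Ercc1Δ/-), -0.0487 to -0.00228 (age, WT) and -0.0362 to 0.00387 (diet, WT). The last changed sign, with 0.000876, 0.00153 and 0.00387 (without samples 010, 017 and 020), and age in Ercc1Δ/- mice passed at -0.173 without sample 027 (adjusted p = 0.05). Counts over all genes moved by over 1.5 times in several settings. Genotype at 6 weeks (210) became 378 by DESeq2, 121 with only the groups compared and 123 after thinning, which also gave 797 beside 1487 at 22 weeks on AL and 968 beside 1605 on DR. Age gave 357 after thinning beside 579 in Ercc1Δ/- mice, and 18 (thinned) to 106 (DESeq2) beside 29 in WT. Diet in WT (158) ran from 50 (thinned) to 299 (no filter), and in Ercc1Δ/- mice (202) from 90 (only the groups compared) to 344 (DESeq2). The interactions with age (104) and diet (12) ran from 62 (thinned) to 191 (DESeq2) and from 2 (no sex term) to 42 (DESeq2).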
